A study of Mus musculus with 12 samples.

Results

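The genes described here are 10 imprinted protein-coding genes of the mouse, namely Phlda2, Cdkn1c, Igf2r, Igf2, Grb10, Peg3, Impact, Ndn, Plagl1 and Snrpn, measured in erythroid cells with and without knockdown of the histone methyltransferase G9a. They were taken as every probe set whose annotation names 1 of these symbols and no other gene, with no filter on level, which gave 29 probe sets out of 45037 that are not controls, and 10 genes out of 18193 with a probe set of their own. The array holds 1 such probe set for Phlda2, 1 for Cdkn1c, 1 for Snrpn, 2 each for Igf2r and Igf2, 3 each for Grb10, Impact and Plagl1, 5 for Peg3 and 8 for Ndn. A further 7 probe sets name a member together with a neighbouring transcript, 6 of them Snurf with Snrpn and 1 of them Airn with Igf2r, and were kept apart.

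The cells were mouse erythroleukemia (MEL) cells, a virus-transformed erythroid line. All arrays were of cells grown with 2% dimethyl sulfoxide (DMSO) for 4 days, which starts their maturation toward red cells. The 3 G9a knockdown arrays and the 3 wild type arrays carry replicate numbers 1 to 3. Doxycycline at 5 µg/ml induced the knockdown. A single protocol text covers both groups, which leaves unstated if wild type cultures had doxycycline too, which construct gave the knockdown, or whether the cells were 1 clone.

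An imprinted gene is transcribed from only the maternal or only the paternal copy, according to DNA methylation laid down in the egg or the sperm and kept through later divisions. Imprinted genes lie in clusters that share a control region, and many of them act on fetal growth, on the placenta and in the brain. G9a, the product of Ehmt2, methylates lysine 9 of histone H3, and in the mouse placenta it is known to help long noncoding RNAs silence the paternal copies of genes in the Kcnq1 and Igf2r clusters. Expression arrays read the sum of both copies, so the values below cannot tell which copy was read. Of the 10 genes, 4 are known as maternally expressed in most tissues (Phlda2, Cdkn1c, Igf2r and Grb10, the last read from the paternal copy in neurons) and 6 as paternally expressed (Igf2, Peg3, Impact, Ndn, Plagl1 and Snrpn).

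The 250 bases before a transcription start, from the RefSeq promoter table of the GRCm38.p6 build, follow for the members with the largest differences between the groups, Phlda2 and Igf2r, and for Peg3, which lay at background. Each is written 5′ to 3′ on the gene's strand, with every CG dinucleotide, the site of DNA methylation, in capitals.
Phlda2 (chr7:143502525-143502774, minus strand): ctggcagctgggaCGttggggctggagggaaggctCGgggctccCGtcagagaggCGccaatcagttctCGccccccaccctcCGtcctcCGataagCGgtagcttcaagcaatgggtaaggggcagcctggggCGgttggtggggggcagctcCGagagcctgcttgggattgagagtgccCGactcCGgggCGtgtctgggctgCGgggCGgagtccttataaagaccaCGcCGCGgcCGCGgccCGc
Igf2r (chr17:12769707-12769956, minus strand): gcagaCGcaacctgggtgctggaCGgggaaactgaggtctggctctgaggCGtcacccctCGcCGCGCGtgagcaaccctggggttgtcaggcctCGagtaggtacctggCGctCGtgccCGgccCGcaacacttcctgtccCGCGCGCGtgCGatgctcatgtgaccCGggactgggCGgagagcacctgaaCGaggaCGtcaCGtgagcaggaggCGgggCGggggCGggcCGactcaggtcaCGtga
Peg3 (chr7:6730420-6730669, minus strand): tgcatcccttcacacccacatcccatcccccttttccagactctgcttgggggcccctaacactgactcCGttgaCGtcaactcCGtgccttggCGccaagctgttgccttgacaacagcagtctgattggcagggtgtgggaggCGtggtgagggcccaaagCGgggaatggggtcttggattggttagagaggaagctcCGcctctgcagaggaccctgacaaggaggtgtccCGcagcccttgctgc
The Phlda2 window holds 21 CG dinucleotides and the Igf2r window 27, against a median of 6 over all 32851 such windows, of which 16.3% hold at least as many as Phlda2 and 8.56% at least as many as Igf2r. The Peg3 window holds 8, a number that 43.0% of windows reach. The letters GGGCGG, searched on both strands and overlapping the CG count, occur 2 times before Phlda2, 3 times before Igf2r and 0 times before Peg3, while 32.7% of all windows hold them at least once. Members at background also have windows rich in CG: the richest before a Grb10 start holds 40 and the Plagl1 window holds 19. The table holds windows for 8 of the 10 members.

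The knockdown was read first from its target. Ehmt2 at 1460692_at, the brighter of its probe sets, gave 6.67, 7.33 and 7.58 in knockdown arrays 1 to 3, against 9.92, 10.03 and 10.23 in wild type arrays 1 to 3, all GCRMA values on the log2 scale. The knockdown minus wild type difference was −2.87 (SE 0.15), or 7.31-fold lower in the knockdown, and it passed the threshold of 0.05 in a limma fit blocked on replicate number (adjusted p = 0.0316). Without the block its adjusted p was 0.0719. The other Ehmt2 probe set, 1426888_at, read 4.29, 4.28 and 4.16 in the knockdown arrays and 7.43, 7.07 and 6.82 in the wild type arrays (difference −2.86, limma adjusted p = 0.0278).

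Array medians lay between 2.99 and 3.10. Of 17 erythroid marker symbols listed, with Epb42 also under its older symbol Epb4.2, 12 had a probe set of their own. Of these, 11 were above the filter, among them Gata1 (13.40 ± 0.300 in the knockdown and 13.25 ± 0.160 in wild type, SD, n = 3 each) and Alas2. The following counts are also of genes with a probe set of their own. Lymphoid markers were above the filter for 0 of 7 genes and fibroblast and endothelial markers for 2 of 10 (Pdgfrb and Vim). Myeloid markers were above it for 2 of 10 (Prtn3 and Csf1r) and megakaryocyte markers for 2 of 6 (Itga2b and Pf4).

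Most probe sets of the imprinted genes were not above background. A probe set was counted as above background, and tested, where it exceeded log2 4 in at least 3 of the 6 arrays, which 17028 probe sets did. Among the members, 7 of 29 probe sets (24.1%) did so, against 37.8% of all probe sets, and they belong to 5 genes: Phlda2, Cdkn1c, Igf2r, Impact and Ndn. By gene, 5 of the 10 members had such a probe set, and so had 9025 of the 18193 genes with a probe set of their own. By known parental origin the 5 genes are 3 of the 4 maternally expressed and 2 of the 6 paternally expressed members. This split counts Cdkn1c, which was above log2 4 in 4 of the 6 arrays. It leaves out the paternally expressed Snurf and Snrpn transcript, whose shared probe set 1415895_at was above the filter.

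Igf2, Grb10, Peg3, Plagl1 and Snrpn had 0 of their 14 probe sets above the filter. Igf2, the fetal growth factor that binds the receptors encoded by Igf1r and Igf2r, read between 1.96 and 2.74 over its 2 probe sets and 6 arrays. Grb10, an adaptor that restrains insulin and insulin-like growth factor receptor signalling, read between 2.05 and 2.30. Peg3, a zinc finger protein that acts in fetal growth and maternal behaviour, read between 2.19 and 2.87 over 5 probe sets. Plagl1, a zinc finger factor that in the mouse links a network of imprinted genes, read between 2.22 and 2.43. The Snrpn probe set, for a splicing protein made mostly in the brain, read between 2.40 and 2.49. The probe sets of these 5 genes alone thus gave no signal above the array medians in the knockdown or in wild type, while 2 probe sets shared by Snurf and Snrpn, described further on, were above the filter.

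The whole set of 22 member probe sets below the filter, which also takes in 7 of the 8 for Ndn and 1 of the 3 for Impact, spanned 1.74 to 3.09. In 5 of the 6 arrays all 22 lay below the array's own median, and in knockdown array 1 there were 21, the exception being the Ndn probe set 1435383_x_at at 3.09. For scale, 48 probe sets of 25 genes known from other tissues, such as Alb (albumin) and Myh6 (a heart myosin), had medians of 2.72 to 2.80 per array, and 6 of the 48 passed the filter.

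Between the groups, these 22 probe sets moved with the background of the arrays. In the replicate 1 pair all 22 were higher in the knockdown, with a median difference of 0.017. In the replicate 2 pair all 22 were lower in the knockdown (median −0.040), as were all 22 in the replicate 3 pair (median −0.054). The medians over all 28009 probe sets below the filter were 0.017, −0.041 and −0.053 in the same pairs. The mean differences of the 22 over the 3 pairs ran from −0.042 to −0.011. In all 22 the knockdown and wild type values overlapped, but overlap was not counted over all probe sets below the filter. The common sign within a pair was therefore that of the undetected probe sets as a whole, and nothing was read from it about the genes. In MAS5 fitted without a filter, 4 of the 22 had an unadjusted limma p under 0.05, against 8.95% of all probe sets below the filter, and with the members above it there were 5 of 29, against 6.13% of all probe sets. After adjustment 0 passed.

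**Figure D1:**
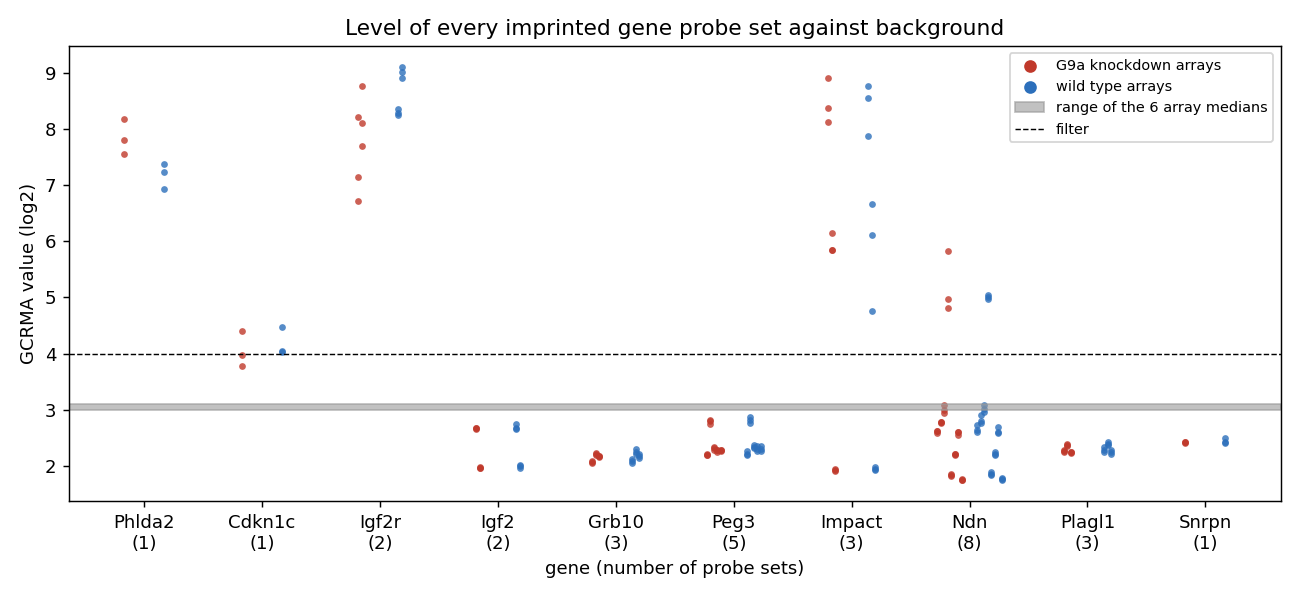
GCRMA values (log2) of all 29 member probe sets by gene, with the 3 knockdown arrays (red) left of the 3 wild type arrays (blue) and each point 1 probe set on 1 array. The dashed line is the filter at log2 4 and the grey band holds the 6 array medians, 2.99 to 3.10, and 22 probe sets lie at or under it.

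**Figure D2:**
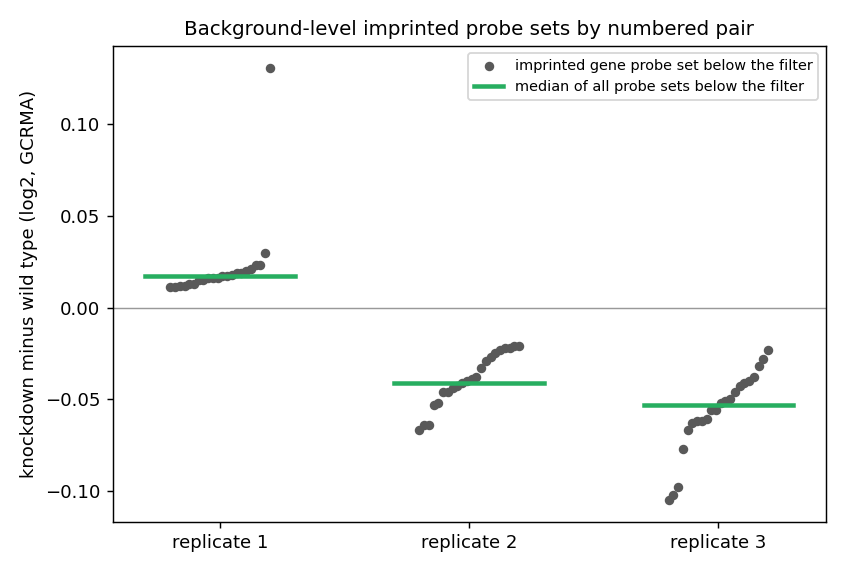
Knockdown minus wild type (log2, GCRMA) of the 22 member probe sets below the filter, in each pair of arrays with the same replicate number. Grey points are member probe sets and green bars the median of all 28009 probe sets below the filter, at 0.017, −0.041 and −0.053, and the points gather around the bars except for the Ndn probe set 1435383_x_at at 0.131.

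No imprinted gene passed the threshold for a difference between knockdown and wild type. Over all 17028 tested probe sets, 2 passed in the blocked limma fit (0.0117%), both of Ehmt2, and 0 of the 7 member probe sets did. At an unadjusted p under 0.05 there were 3 of the 7, against 13.7% of all tested probe sets: Phlda2, higher in the knockdown as were 6.44% of all, and both probe sets of Igf2r, lower as were 7.24%. In those same 3 the groups did not overlap, which held for 12.4% of all tested probe sets (5.04% with the knockdown higher and 7.33% with it lower). Without the block, the same count of 3 member probe sets had an unadjusted p under 0.05 in limma, against 5.87% of all, and 0 passed after adjustment, against 0.00587% of all. In MAS5 there were 3 at an unadjusted p under 0.05, against 10.6% of all, and 0 passed, with 0% of all passing. The 2 Igf2r probe sets read the same transcript and are not separate evidence. In 4 of the 7 the difference had a single sign in all 3 numbered pairs, as it had in 37.9% of all tested probe sets. The median difference over the 7 was 0.08, beside −0.0083 over all tested probe sets.

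Phlda2 encodes a small protein with a pleckstrin homology domain that limits the growth of the placenta. Its probe set, 1417837_at, read 7.80, 8.17 and 7.56 in knockdown arrays 1 to 3, against 7.37, 7.24 and 6.93 in wild type arrays 1 to 3. Every knockdown value lay above every wild type value, and the lowest knockdown value exceeded the highest wild type value by 0.19, less than the SD within either group (0.308 in the knockdown and 0.227 in wild type). By pair the differences were 0.43, 0.93 and 0.63. Their mean was 0.67 (SE 0.13, 95% interval 0.34 to 0.99), or 1.59-fold. The limma adjusted p was 0.192 (unadjusted p = 0.00284), so the difference was not called. Leaving out the arrays of any replicate number gave differences of 0.53 to 0.78.

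The MAS5 summary of the same arrays gave Phlda2 841, 717 and 652 in the knockdown arrays, against 523, 533 and 426 in the wild type arrays. The groups again did not overlap, and the difference on the log2(value + 1) scale was 0.57 (95% interval 0.28 to 0.87, limma adjusted p = 0.419). Both summaries come from 1 set of hybridizations, so this checks the summary and not the biology.

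Igf2r encodes the cation-independent mannose 6-phosphate receptor, which carries lysosomal enzymes and takes up Igf2 for breakdown. At 1424112_at it read 7.70, 8.10 and 8.76 in knockdown arrays 1 to 3, against 9.11, 9.02 and 8.91 in wild type arrays 1 to 3. At 1424111_at it read 6.72, 7.14 and 8.22 in the knockdown arrays and 8.25, 8.35 and 8.29 in the wild type arrays. The wild type values were tight and the knockdown values wide, with an SD of 0.778 in the knockdown and 0.05 in wild type at 1424111_at. Knockdown arrays 1 and 2 lay well under the wild type arrays, and knockdown array 3 lay only just under them.

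The Igf2r differences by pair were −1.41, −0.92 and −0.16 at 1424112_at and −1.54, −1.21 and −0.06 at 1424111_at. Their means were −0.83 (SE 0.24, 95% interval −1.44 to −0.22, limma adjusted p = 0.283) and −0.94 (SE 0.29, −1.66 to −0.21, limma adjusted p = 0.299). On the linear scale these are 1.78-fold and 1.91-fold lower in the knockdown, and neither was called. Without the replicate 3 arrays the differences were −1.17 and −1.37, and without the replicate 1 arrays they were −0.54 and −0.64. The Ehmt2 differences at 1460692_at in the same pairs were −3.25, −2.70 and −2.65, in the same order as those of Igf2r. At this probe set Ehmt2 was highest in knockdown array 3 among the knockdown arrays. At 1426888_at the differences were −3.14, −2.79 and −2.66, also in that order. There Ehmt2 was lowest in knockdown array 3, at 4.16 against 4.29 and 4.28 in knockdown arrays 1 and 2. The part of knockdown strength in the Igf2r spread was not tested.

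MAS5 gave smaller differences for Igf2r, of the same sign. At 1424112_at the signals were 813, 938 and 1135 in the knockdown arrays, against 1398, 1432 and 1355 in the wild type arrays. At 1424111_at they were 561, 630 and 978 in the knockdown arrays, against 964, 1112 and 1109 in the wild type arrays, so that knockdown array 3 overlapped wild type. The MAS5 differences were −0.55 (95% interval −0.92 to −0.18, limma adjusted p = 0.422) there and −0.59 (−1.03 to −0.16, limma adjusted p = 0.427) at 1424111_at. The probe set shared by Airn, the antisense RNA of this cluster, and Igf2r read between 2.85 and 2.91 on all 6 arrays, at background.

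Cdkn1c encodes p57, an inhibitor of cyclin-dependent kinases, and lies near Phlda2 in the Kcnq1 cluster. Its probe set, 1417649_at, read 4.41, 3.97 and 3.77 in the knockdown arrays, against 4.47, 4.05 and 4.03 in the wild type arrays. These values sit on the filter. In every array they were above the median of the other-tissue probe sets (2.72 to 2.80) and below their 90th percentile (4.47 to 4.63). That percentile lies among the 6 of these 48 probe sets that passed the filter, with Cela1 and Mbp among their genes. The difference was −0.13 (SE 0.10, 95% interval −0.38 to 0.12, limma adjusted p = 0.598). Phlda2 and Cdkn1c thus gave differences of opposite sign, of which the interval for Cdkn1c includes 0.

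Impact encodes a protein that restrains the translation kinase GCN2 under amino acid stress. At 1415911_at it read 8.13, 8.38 and 8.91 in the knockdown arrays, against 7.87, 8.56 and 8.77 in the wild type arrays. The values differed more between replicate numbers than between groups, with the replicate 1 array the lowest in both. The difference was 0.08 (SE 0.12, 95% interval −0.23 to 0.39, limma adjusted p = 0.826), an interval that reaches neither the mean difference of Phlda2 nor that of Igf2r in size.

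A second Impact probe set, 1446750_at, read 5.85, 5.85 and 6.15 in the knockdown arrays, against 4.76, 6.12 and 6.67 in the wild type arrays. Its pair differences, 1.10, −0.27 and −0.52, had no common sign (mean 0.10, SE 0.32, limma adjusted p = 0.917). Without the replicate 1 arrays its difference was −0.40. The third, 1446751_s_at, stayed between 1.91 and 1.98.

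Ndn encodes necdin, which restrains the cell cycle in neurons and in blood stem cells of the mouse. Of its 8 probe sets, 7 lay between 1.74 and 3.09. The remaining one, 1437853_x_at, carries the suffix that Affymetrix gives to probe sets whose probes may also bind other transcripts. It read 5.83, 4.97 and 4.81 in the knockdown arrays, against 4.98, 5.01 and 5.05 in the wild type arrays. Only knockdown array 1 stood out. The difference was 0.19 (SE 0.22, 95% interval −0.38 to 0.75, limma adjusted p = 0.75), and without the replicate 1 arrays it was −0.14. In MAS5 the signals were 93.9, 54.1 and 57.1 in the knockdown arrays, against 26.2, 55.8 and 43.2 in the wild type arrays, a difference of 0.72 (95% interval −0.25 to 1.69, limma adjusted p = 0.554).

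**Figure D3:**
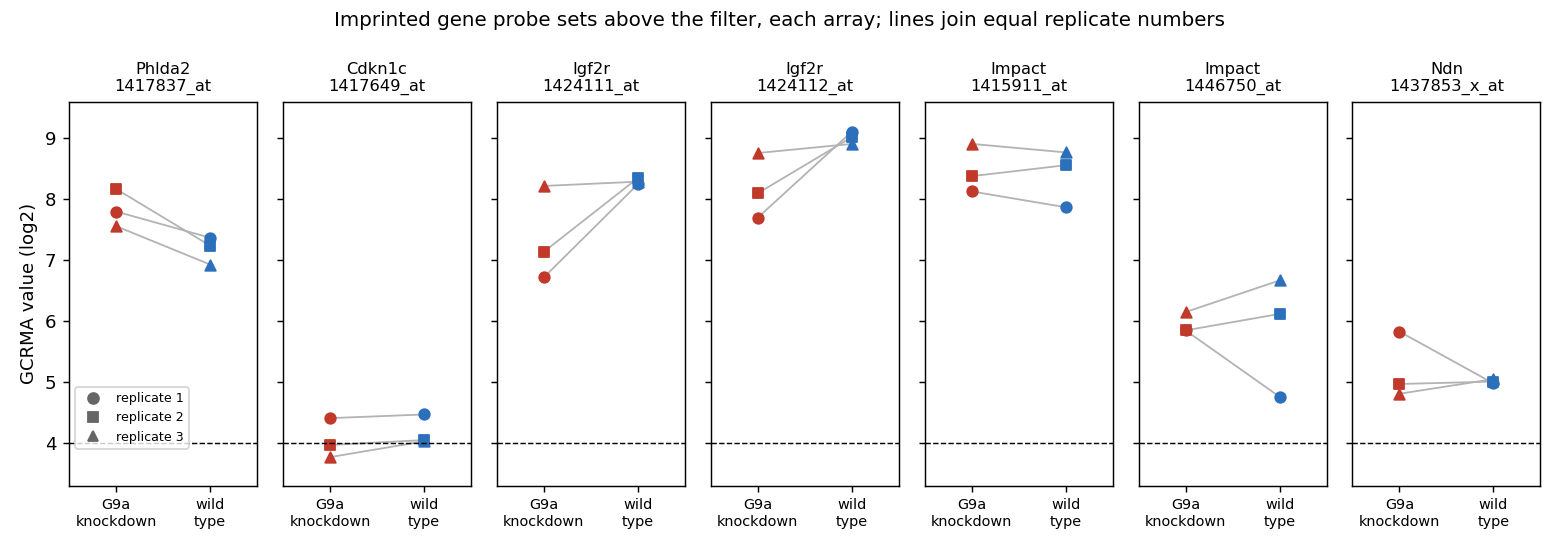
GCRMA value (log2) of each of the 7 tested member probe sets on each array, knockdown (red) left of wild type (blue), with marker shapes and grey lines joining arrays of equal replicate number and a dashed line at the filter. The groups are apart for Phlda2, with the knockdown above wild type, and for both Igf2r probe sets, with the knockdown below wild type and its replicate 3 array close to wild type.

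**Figure D4:**
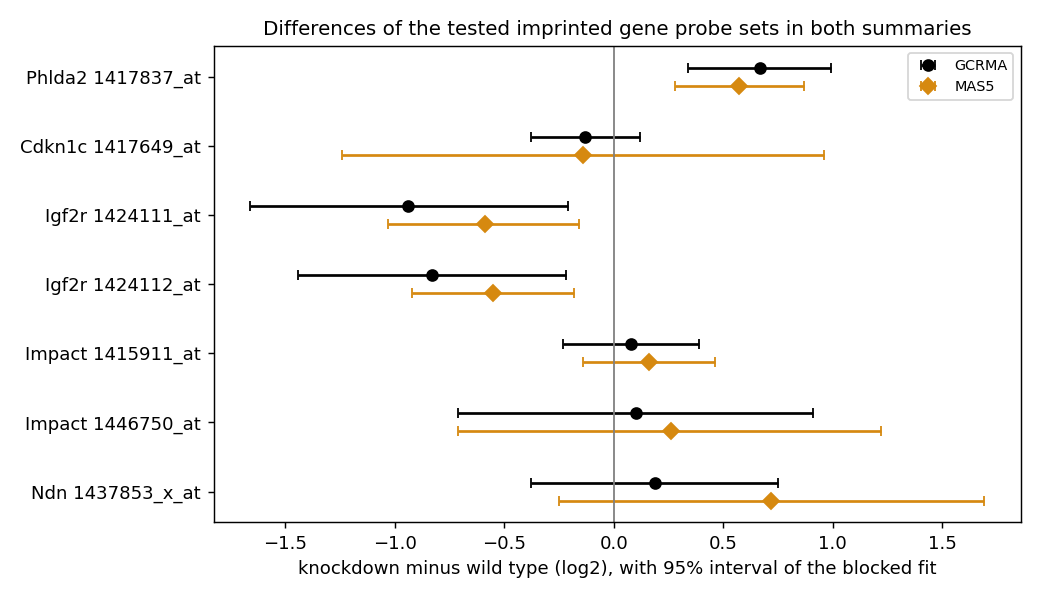
Knockdown minus wild type (log2) with its 95% interval from the blocked limma fit, for the 7 tested member probe sets in GCRMA (black) and in MAS5 as log2(value + 1) (orange). The intervals leave out 0 in both summaries for Phlda2 (0.67 and 0.57) and Igf2r (−0.94 and −0.59 at 1424111_at) before any adjustment for the number of probe sets, and include 0 for Cdkn1c, Impact and Ndn.

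The paternally expressed transcript that makes Snurf and Snrpn was read by the probe sets naming both. At 1415895_at these read 6.47, 6.33 and 6.02 in the knockdown arrays, against 6.22, 6.47 and 6.38 in the wild type arrays, with overlapping groups (difference −0.08, SE 0.14, limma adjusted p = 0.846). At 1415896_x_at the values ran from 4.62 to 4.93, and the other 4 shared with Snurf were below the filter. Whether Snurf, Snrpn or both gave this signal cannot be told apart.

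Other imprinted genes showed no common direction. Of 51 listed, 45 had a probe set of their own and 18 were tested, each through its brightest tested probe set. The differences were positive in 7 and negative in 11, with a median of −0.07 beside −0.0063 over 9025 tested genes. After adjustment 0 of the 18 passed in the blocked limma fit. At an unadjusted p under 0.05 there were 4 positive and 2 negative, or 33.3%, against 14.2% of all tested genes.

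Ddc, the aromatic amino acid decarboxylase that lies next to Grb10 and is imprinted in the fetal heart of the mouse, read 8.25, 7.91 and 7.30 in the knockdown arrays, against 7.26, 7.28 and 6.55 in the wild type arrays. All 3 knockdown values were above all 3 wild type values (difference 0.79, SE 0.11, limma adjusted p = 0.169). Pon2, a paraoxonase of the Peg10 cluster, read 8.78, 9.16 and 9.04 in the knockdown arrays, against 9.37, 9.85 and 9.72 in the wild type arrays (difference −0.66, SE 0.09, limma adjusted p = 0.169). The other tested Pon2 probe sets differed by −0.70 at 1450686_at and by −0.05 at 1429020_at, which lay near the filter.

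Kcnq1ot1, the noncoding RNA that silences the paternal copies of Phlda2 and Cdkn1c, read 3.92, 6.18 and 6.17 in the knockdown arrays, against 4.58, 6.46 and 6.75 in the wild type arrays at 1458161_at. The replicate 1 array was lowest in both groups, and the groups overlapped (difference −0.51, SE 0.12, limma adjusted p = 0.214). The other 2 tested Kcnq1ot1 probe sets differed by 0.05 and 0.24, so its direction depends on the probe set. Ampd3, an AMP deaminase of red cells that is imprinted in the placenta, differed by 0.38 (SE 0.09, limma adjusted p = 0.237). Neither was called.

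**Figure D5:**
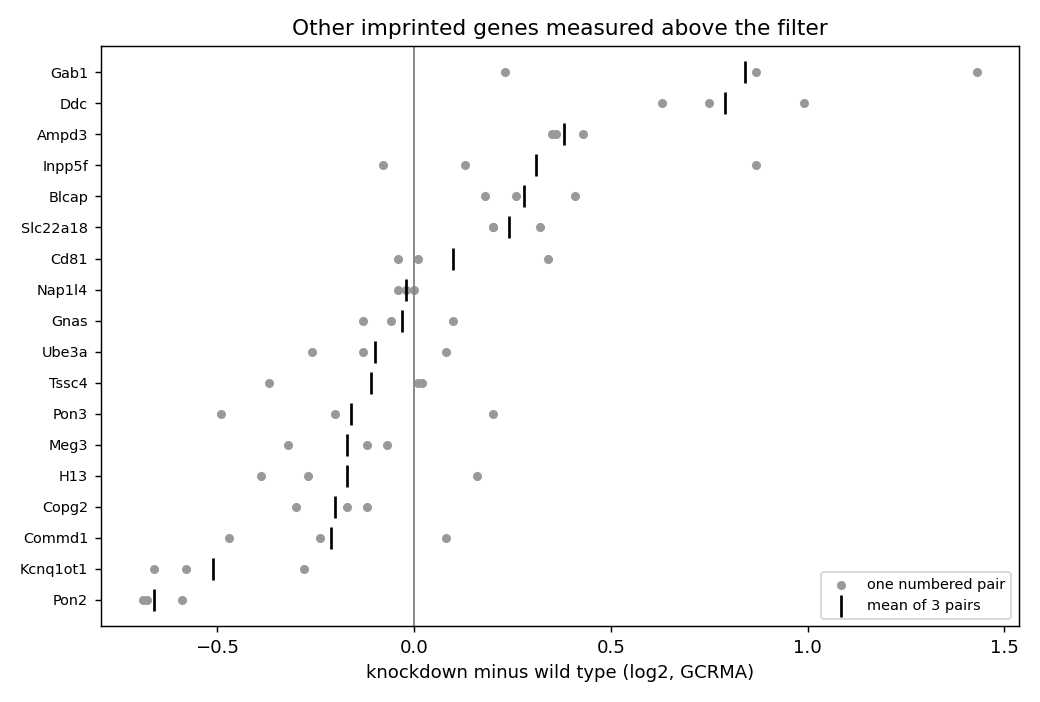
Knockdown minus wild type (log2, GCRMA) for the 18 other imprinted genes measured above the filter, sorted by the mean of the 3 numbered pairs (black ticks), with each pair as a grey point. The means run from −0.66 for Pon2 to 0.84 for Gab1 and lie on both sides of 0, 7 above and 11 below.

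Genes beside the members were compared as well. The 3 nearest protein-coding genes on each side of every member, in the order of the RefSeq table, are 51 genes that are not members, of which 16 were tested. Differences were positive in 7 and negative in 9 (median −0.02), and 0 passed the threshold in the blocked limma fit. At an unadjusted p under 0.05 there were 3 (18.8%), against 14.2% of all tested genes. They were Ddc, Fignl1, also near Grb10 (−0.51), and Stx11, near Plagl1 (−0.93, limma adjusted p = 0.209). Slc22a18, the maternally expressed transporter gene next to Phlda2, differed by 0.24 (SE 0.10, limma adjusted p = 0.365), with pair differences of 0.20, 0.20 and 0.32 and groups that did not overlap. Nap1l4, on the other side of Phlda2, differed by −0.02. Near Igf2r, 0 of the 6 neighbours had a tested probe set.

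Factors that keep or read imprints were measured more often. Of 20 listed, 16 were tested, with 6 positive and 10 negative differences (median −0.17). Only Ehmt2, the target, passed the threshold in the blocked limma fit, and at an unadjusted p under 0.05 there were 6 negative and 0 positive, Ehmt2 included, or 37.5%, against 14.2% of all tested genes. Uhrf1, which brings the maintenance methyltransferase to newly copied DNA, read 8.36, 7.07 and 6.96 in the knockdown arrays, against 9.26, 7.85 and 7.89 in the wild type arrays. The replicate 1 arrays were high in both groups, which overlapped, while the pair differences were even, at −0.90, −0.78 and −0.92 (mean −0.87, SE 0.10, limma adjusted p = 0.149). Without the block its limma adjusted p was 0.858. Its difference was −1.32 when knockdown array 1 was left out and −0.40 when wild type array 1 was. The other Uhrf1 probe set, 1415811_at, had uneven pair differences of −1.50, −1.12 and −0.41 (mean −1.01, limma adjusted p = 0.209).

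Hells, a chromatin remodeller needed for DNA methylation, read 7.74, 7.06 and 7.36 in the knockdown arrays, against 8.48, 7.85 and 7.98 in the wild type arrays (difference −0.72, SE 0.10, limma adjusted p = 0.167). Dnmt1, the maintenance methyltransferase itself, differed by −0.29 (SE 0.10, limma adjusted p = 0.317), and by −0.25 and −0.15 at its other probe sets. None of these 3 was called.

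The insulin-like growth factor pathway, in which Igf2, Igf2r and Grb10 act, had 7 tested genes of 16 listed. Each was read through its brightest tested probe set, with 5 positive and 2 negative differences (median 0.22). At an unadjusted p under 0.05 in the blocked limma fit there were 0, against 14.2% of all tested genes. Igf1r, the signalling receptor for Igf2, read 9.25, 9.31 and 8.74 in the knockdown arrays, against 8.74, 8.76 and 8.81 in the wild type arrays at its brightest probe set. Knockdown arrays 1 and 2 were above wild type and knockdown array 3 was not (difference 0.33, SE 0.15, limma adjusted p = 0.417). M6pr, the cation-dependent mannose 6-phosphate receptor, differed by 0.22, Insr, the insulin receptor, by 0.22, and Furin, a protease that matures growth factors, by 0.20.

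The 11 erythroid genes above the filter, each read through its brightest tested probe set, had 7 positive and 4 negative differences. At an unadjusted blocked limma p under 0.05 there were 2, Ermap (0.74) and Klf1 (0.40), both higher in the knockdown. This is 18.2%, against 14.2% of all tested genes, and 0 of the 11 passed after adjustment. The 6 measured markers of other cell types were each read through the brightest probe set. Prtn3 (difference 1.19), Itga2b (−0.71) and Vim (−0.54) had an unadjusted blocked limma p under 0.05, against 14.2% of all tested genes. After adjustment 0 of the 6 passed the threshold. The other marker of each list differed by −0.05 for Csf1r (0.44 at a second probe set), −0.12 for Pf4 and 0.41 for Pdgfrb. The mean level of the 2 measured myeloid genes was 6.20, 6.32 and 5.72 in the knockdown arrays and 5.79, 5.35 and 5.39 in the wild type arrays. For the 2 megakaryocyte genes it was 10.06, 10.02 and 9.03 in the knockdown arrays and 10.24, 10.13 and 9.98 in the wild type arrays. For the 2 fibroblast and endothelial genes it was 6.43, 5.61 and 5.67 in the knockdown arrays and 6.42, 5.56 and 5.92 in the wild type arrays. Their part in the Phlda2 and Igf2r differences was not tested. In bulk RNA, a change in the number of cells that express a gene and a change in RNA per cell cannot be told apart.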

How the data were processed

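Per the labels, 6 hybridizations of biotin-labelled total RNA were each deposited in 2 summaries. Of these, the deposited MAS5 values are linear intensity, with a mean of 500 on every array after trimming 2% at each end. The deposited GCRMA columns hold log2 values. The sources used here give no software version or setting for either. Probe sets were named from the platform annotation, and 10 of 10 members matched a RefSeq gene table. The deposited data name no genome build, and the promoter windows above are from GRCm38.p6.

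GCRMA values above log2 4 in at least 3 arrays (17028 probe sets, after leaving out 64 controls) were fitted with limma 3.58.1 in R 4.3.3, with group and replicate number as terms and Benjamini-Hochberg adjustment at 0.05. Member probe sets below this filter are given as values. MAS5 was fitted as log2(value + 1). The fit was tested on simulated data. Genes outside the members were named as the up to 4 of each list with the lowest blocked p, and each gene was represented by its brightest tested probe set. Gab1, Fignl1, Stx11, Slc22a18, Nap1l4 and the cell type markers fall outside this rule and were named after their values were seen, and the comparison of neighbouring genes was likewise added afterwards. The members and lists were chosen with earlier results of these data known.

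The labels do not say what a replicate number stands for, or whether replicates were separate cultures, and the p-values may therefore cover technical spread only. The block on replicate number was planned. Knockdown and wild type arrays of equal number deviated together from their group means (r = 0.718, 0.574 and 0.373 over tested probe sets), while r was −0.591 to 0.169 for unequal numbers. Deviations from a mean of 3 arrays cancel out, so positive r for equal numbers by itself pulls r for unequal numbers down. The number of arrays limits the precision.

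Alternatives were no replicate block, other filters on dim probe sets, an intensity trend in the prior variance, centring of arrays, MAS5 with 2 pseudocounts, and leaving out arrays.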

Additional observations from a re-analysis of the deposited data

How the results depend on the processing

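The 3 member probe sets at an unadjusted p under 0.05 (Phlda2 and both of Igf2r) had 1 sign each under every alternative run, with 0.50 to 0.81 for Phlda2, −1.37 to −0.58 for Igf2r at 1424111_at and −1.17 to −0.54 at 1424112_at, and adjusted p-values of at least 0.119. No member probe set passed under any alternative, the fit without the replicate block included, where adjusted p was 0.731 for Phlda2 and 0.831 and 0.765 for these Igf2r probe sets. The count of members at an unadjusted p under 0.05 was 3 in that fit and in MAS5 over the same probe sets, 1 to 3 when arrays were left out, and, of 29, 5 in MAS5 over all probe sets (6.13% of all), an alternative chosen after seeing the data. Of 125 recomputed differences of the 7 tested member probe sets, 9 had the other sign, in Cdkn1c, Impact and Ndn, and all 9 came from leaving out arrays. Leaving out both arrays of a number gave −0.02 to 0.20 for Impact at 1415911_at, −0.40 to 0.41 at 1446750_at and −0.14 to 0.40 for Ndn. Leaving out single arrays gave −0.31 to 0.01 for Cdkn1c, −0.19 to 0.26 and −0.45 to 0.51 for these Impact probe sets, −0.13 to 0.39 for Ndn and −1.18 to 0.25 for Kcnq1ot1. Over all tested probe sets, 2 passed in the main setting, 1 without the replicate block, 0 with no filter on dim probe sets, 4 with the filter at log2 5, 8 with the trend in the prior variance, 0 in each MAS5 fit, and 0 to 1 when arrays were left out. The cause was not tested, except that fewer arrays leave fewer degrees of freedom. MAS5 called 0 where 1799 probe sets (10.6%) had an unadjusted p under 0.05, 3 of the 7 member probe sets among them. In wholly undetected genes a difference could not be measured at this signal over background.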

Other observations

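The GCRMA and MAS5 summaries of the same arrays parted at the Snurf and Snrpn probe set 1415895_at. In MAS5 it gave 1330, 1280 and 208 in the knockdown arrays, against 163, 1018 and 1490 in the wild type arrays, while the GCRMA values stayed between 6.02 and 6.47. The MAS5 difference was 0.17, with an SE of 1.10 and pair differences of 3.02, 0.33 and −2.83. This probe set was singled out after its values were seen.

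In MAS5, 4 of the 22 member probe sets below the filter had an unadjusted blocked limma p under 0.05, 2 higher and 2 lower in the knockdown, against 8.95% of all probe sets below the filter. They were 3 probe sets of Ndn, with differences of 1.24 at 1415923_at, −1.32 at 1438939_x_at and −1.88 at 1456575_at, and 1 of Plagl1, with 0.89 at 1426208_x_at. Their MAS5 signals reached at most 41.6, under the lowest array median of 47.7, and their limma adjusted p-values were at least 0.772. The 3 Ndn probe sets did not share a direction, and in GCRMA their differences were between −0.042 and −0.012.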
